A study of Mus musculus with 54 samples.

Results

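The burning of fatty acids and the use and formation of ketone bodies were followed through 40 genes, chosen by name as the genes of these pathways that heart and liver use, in hearts and livers of mice whose mitochondrial ribosomes read the genetic code with altered accuracy. All 40 of the 54356 genes listed in each tissue were found, and all 40 were among the 16057 genes that entered the fit for hearts and the 15314 for livers. The C57BL/6 mice were male, were 20 weeks old and had been fed a high-fat diet (HFD) with 42% of its energy as fat, which every group ate, so that no comparison of diets is possible here. There were 3 genotypes of Mrps12, the gene of a protein at the decoding site of the small mitochondrial ribosomal subunit: Mrps12 +/+ mice, Mrps12 ep/ep mice with an error-prone allele and Mrps12 ha/ha mice with a hyper-accurate allele, both homozygous in the whole body. They are called +/+, ep/ep and ha/ha. Each tissue had 9 mice, 3 of each genotype, and 3 technical libraries per mouse that the authors pooled before counting.

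Fatty acids enter cells through carriers such as CD36, are bound by fatty acid binding proteins and are activated to acyl-CoA by synthetases. The carnitine shuttle carries long-chain acyl groups into mitochondria, where malonyl-CoA holds its first enzyme, CPT1, in check. Inside, the beta-oxidation spiral shortens the chain, and the electron transfer flavoprotein passes the electrons of its first step to ubiquinone. The heart draws most of its energy from this pathway and burns ketone bodies, while the liver oxidizes fatty acids in mitochondria and peroxisomes and makes ketone bodies for other organs. The receptor PPARA and the estrogen-related receptors drive many of these genes.

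The promoter windows of a gene pair that shares its upstream bases and of the gene that differed most between the mutant hearts are shown first. Hadha and Hadhb encode the subunits of the trifunctional protein, which carries out the last 3 steps of the spiral on long chains. They lie head to head on chromosome 5, and their RefSeq start sites on GRCm38.p6 are 273 bases apart. The window from 250 bases before to 50 bases after the start of Hadhb, at chr5:30155003-30155302 on the plus strand, is printed with the 228 bases that it shares with the window of Hadha in capitals. Ucp3, a mitochondrial carrier of muscle known to follow the supply of fatty acids, is the latter, among members whose mice did not overlap. Its window at chr7:100472741-100473040, also on the plus strand, is printed with exact matches to AGGTCA, the half-site that nuclear receptors such as PPARA bind in pairs, in capitals.
Hadhb: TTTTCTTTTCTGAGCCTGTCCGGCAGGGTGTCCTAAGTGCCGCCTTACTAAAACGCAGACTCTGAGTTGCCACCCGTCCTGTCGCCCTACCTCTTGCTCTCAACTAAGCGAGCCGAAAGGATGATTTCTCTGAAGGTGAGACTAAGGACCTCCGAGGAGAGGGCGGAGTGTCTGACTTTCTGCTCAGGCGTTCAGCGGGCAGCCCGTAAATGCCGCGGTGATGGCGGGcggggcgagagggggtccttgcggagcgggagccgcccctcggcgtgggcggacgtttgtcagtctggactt
Ucp3: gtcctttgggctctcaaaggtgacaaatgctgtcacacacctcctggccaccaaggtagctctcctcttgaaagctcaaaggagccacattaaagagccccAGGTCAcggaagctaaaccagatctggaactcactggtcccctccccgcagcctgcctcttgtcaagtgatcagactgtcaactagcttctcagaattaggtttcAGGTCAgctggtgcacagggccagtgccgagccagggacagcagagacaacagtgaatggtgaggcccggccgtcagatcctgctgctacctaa
The Ucp3 window holds 2 matches, which begin 149 and 44 bases before the start. Of 32851 such windows of all genes 16.3% hold the half-site on either strand. Windows were found for 34 of the members, 38 windows in all, of which 21.1% hold it, in Acacb, Acadm, Acadvl, Cd36, Cpt1a, Echs1, Slc27a2 and Ucp3. The direct repeat DR1, searched as AGGNCA repeated with any 1 base between, was in none of the member windows and in 0.381% of all windows.

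Values are normalized counts, the authors' counts after scaling each sample of a tissue to a common level, given by mouse 1, 2 and 3 of each genotype. Members were compared on log2(normalized count + 1) with limma, adjusted over all tested genes, with a threshold of 0.05 on the adjusted p. The 1 added understates the fold changes of low genes. The 3 +/+ mice served as controls of both mutants, so the comparisons with +/+ are not independent. The p-values measure the spread between these mice only, and an exact two-sided permutation test of 3 against 3 mice cannot go below 0.1, the value reached wherever 2 genotypes do not overlap. In whole tissue, fewer cells of a type and less RNA per cell cannot be told apart.

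The hearts held 11202864 to 51480512 reads on genes and the livers 21238166 to 81518015, and the shallowest heart was that of ha/ha mouse 2. The labelled tissues held their own markers, with 2127906 to 3665316 summed counts of 8 cardiomyocyte genes in hearts and 5537052 to 7002746 of 8 hepatocyte genes in livers, but other tissue was present too. Both alleles are changes of the protein sequence, so the level of Mrps12 RNA does not check the genotypes. The summed count of 6 atrial genes ran from 1759 in ep/ep heart 1 to 395401 in ep/ep heart 2, and was 4645 to 10815 in ha/ha hearts. The summed count of 10 skeletal muscle genes was 29107 and 37785 in the livers of +/+ mice 1 and 2 and 38 to 220 in the other 7. In ha/ha liver 3 the 8 cardiomyocyte genes summed to 8224, against 46 to 505 in the others. +/+ liver 3 had 740661 counts of the acute phase gene Fgb, and the other livers 141891 to 210802. These values are given again beside the results they move with. Some adipocyte genes were high in +/+ heart 3. Ucp1, Plin1 and Adipoq had 8557, 2893 and 1276 counts there and at most 723, 332 and 214 in the others. The sums of 7 brown and 8 white adipocyte genes were 43477 and 42883 in that heart. They were 22028 to 40874 and 22790 to 44344 in the others. The part of fat in the members' values was not tested.

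The levels were set side by side as reads per kilobase of annotated exon, scaled to the reads of each library (RPKM), without a test, since the tables of the tissues were normalized apart. In 20 members every heart was above every liver, in 9 every liver was above every heart, and 11 overlapped. Fabp3, the fatty acid binding protein of muscle, was the highest member of the heart at a median RPKM of 6467 (4911 to 7676), with 0.4 in the liver. Acadl and Acaa2, a dehydrogenase and a thiolase of the spiral, came next in the heart at 814 and 654, and Cd36 had 595 against 29.8 in the liver. In the liver the peroxisomal thiolase Acaa1b led at 810, with 1.03 in the heart, followed by Acaa2 at 549 and the very-long-chain acyl-CoA synthetase Slc27a2 at 313.

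Pairs of related genes split between the organs. Cpt1b, the muscle form of CPT1, stood at a median RPKM of 280 in the heart and 1.89 in the liver, and Cpt1a, the liver form, at 7.93 and 55.4. Within a heart the normalized count of Cpt1b was 10.8 to 18 times that of Cpt1a. Acsl5 was 15.5-fold higher in the liver by these medians, while Acsl1, the main long-chain synthetase of both organs, overlapped between them at 120 and 82.3. Oxct1, the enzyme that commits ketone bodies to oxidation and that hepatocytes are known to lack, stood at 335 in the heart and 1.24 in the liver. Bdh1, which interconverts the ketone bodies, had a median of 28.2 in hearts and 87 in livers. Its ranges met only at 63.9, in the highest heart and the lowest liver. Acat1, which acts in both directions of ketone metabolism, overlapped between the organs at 217 and 131. Reads of some members can also stem from other genes. Of the 31-base words of Cpt1b 79.7% also occur in the readthrough gene Gm44502, of Etfb 49.9% in other genes and of Fabp3 37.3%, mostly in the pseudogene Fabp3-ps1. The neighbours Acaa1b and Acaa1a share 40% of the words of Acaa1b, and Acot2 and Acot1 share 29.9% of those of Acot2, so the split between each pair is uncertain.

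**Figure D1:**
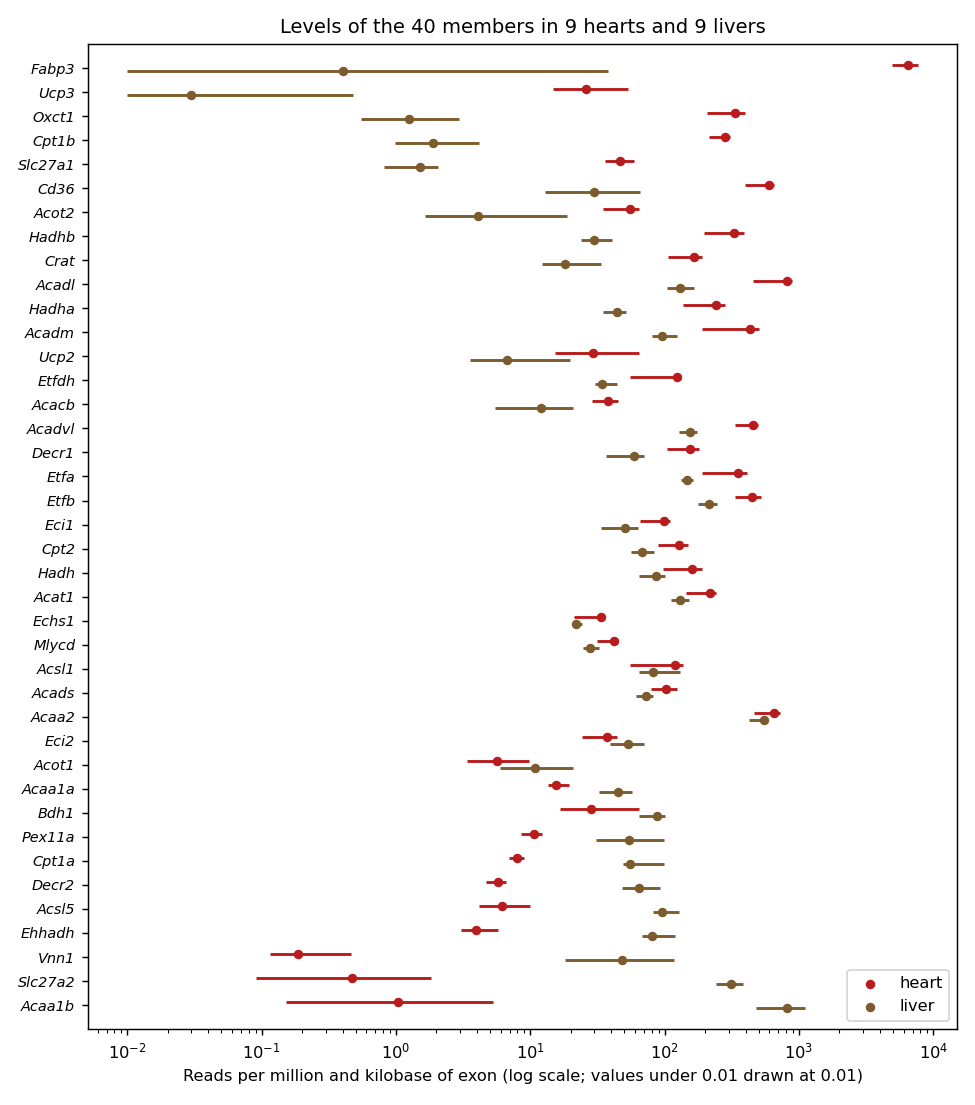
Levels of the 40 members as RPKM on a log axis, with a point at the median and a line from the lowest to the highest of 9 hearts (red) or 9 livers (brown). Fabp3, Ucp3, Oxct1, Cpt1b and Slc27a1 stand furthest to the heart side, and Acaa1b, Slc27a2 and Vnn1 furthest to the liver side.

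In the heart, most members of the spiral and of electron transfer were low in 2 of the 3 ha/ha mice and not in the third. None of the 40 was called. The count was 0 in each comparison from limma, where 0.0311% of all genes were called between ha/ha and +/+ hearts, 0% between ep/ep and +/+ hearts and 0.0249% between the mutants. At an unadjusted p under 0.05 there were 3 members in the first comparison (19.7% of all genes), 4 in the second (1.69% of all genes) and 6 in the third (17.9% of all genes). The median log2 fold change of the members was -0.26 in ha/ha hearts, where 31 of 40 lay below 0, against -0.024 for all genes. In ep/ep hearts it was -0.24 with 37 below 0, against -0.009, and between the mutants 0.05, against -0.023, a value that was -0.13 when limma weighted the hearts and -0.14 without ha/ha mouse 2. The median of the ep/ep hearts came to -0.02 without mouse 2 of that genotype and to -0.11 with the weights.

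The ep/ep median rested on mouse 2, and the ha/ha median on mice 1 and 3. Against the mean of the +/+ hearts, the median member stood at -0.34, 0.14 and -0.40 on the log2 scale in ha/ha mice 1, 2 and 3, and at 0.04, -0.61 and -0.10 in ep/ep mice 1, 2 and 3. ha/ha hearts 1 and 3 lay below all +/+ hearts in 26 and 30 members, whereas heart 2 did so in 0 and lay above all of them in 22. ep/ep heart 2 lay below all +/+ hearts in 36 members, and hearts 1 and 3 in 6 and 18. That heart also had the most atrial RNA, at the sum given above, and ha/ha hearts 1 and 3 had more erythroid RNA, with 464387 and 1411965 summed counts of 5 genes against 91865 to 235641 in the other 7 hearts. The cardiomyocyte genes did not move alike. Ryr2 was at 16285 and 19113 in those 2 hearts and at 42377 to 56980 in the others. Actc1 was lowest there too, at 238389 and 204154.5, with at least 250191 in the others. Myh6, at 2130354 and 1846145, was higher in those 2 hearts than in any other. The sum of the 8 cardiomyocyte genes was also highest there, at 3665316 and 3279710 against 2127906 to 2930068 in the others. Across all tested genes, Spearman's rho between exon length and the deviation from the mean of the 9 hearts was -0.13, -0.03 and -0.18 in ha/ha mice 1, 2 and 3 and -0.07 to 0.21 in the other 6, a description over genes that are not independent. The part of tissue composition, length and depth in the members' values was not tested.

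**Figure D2:**
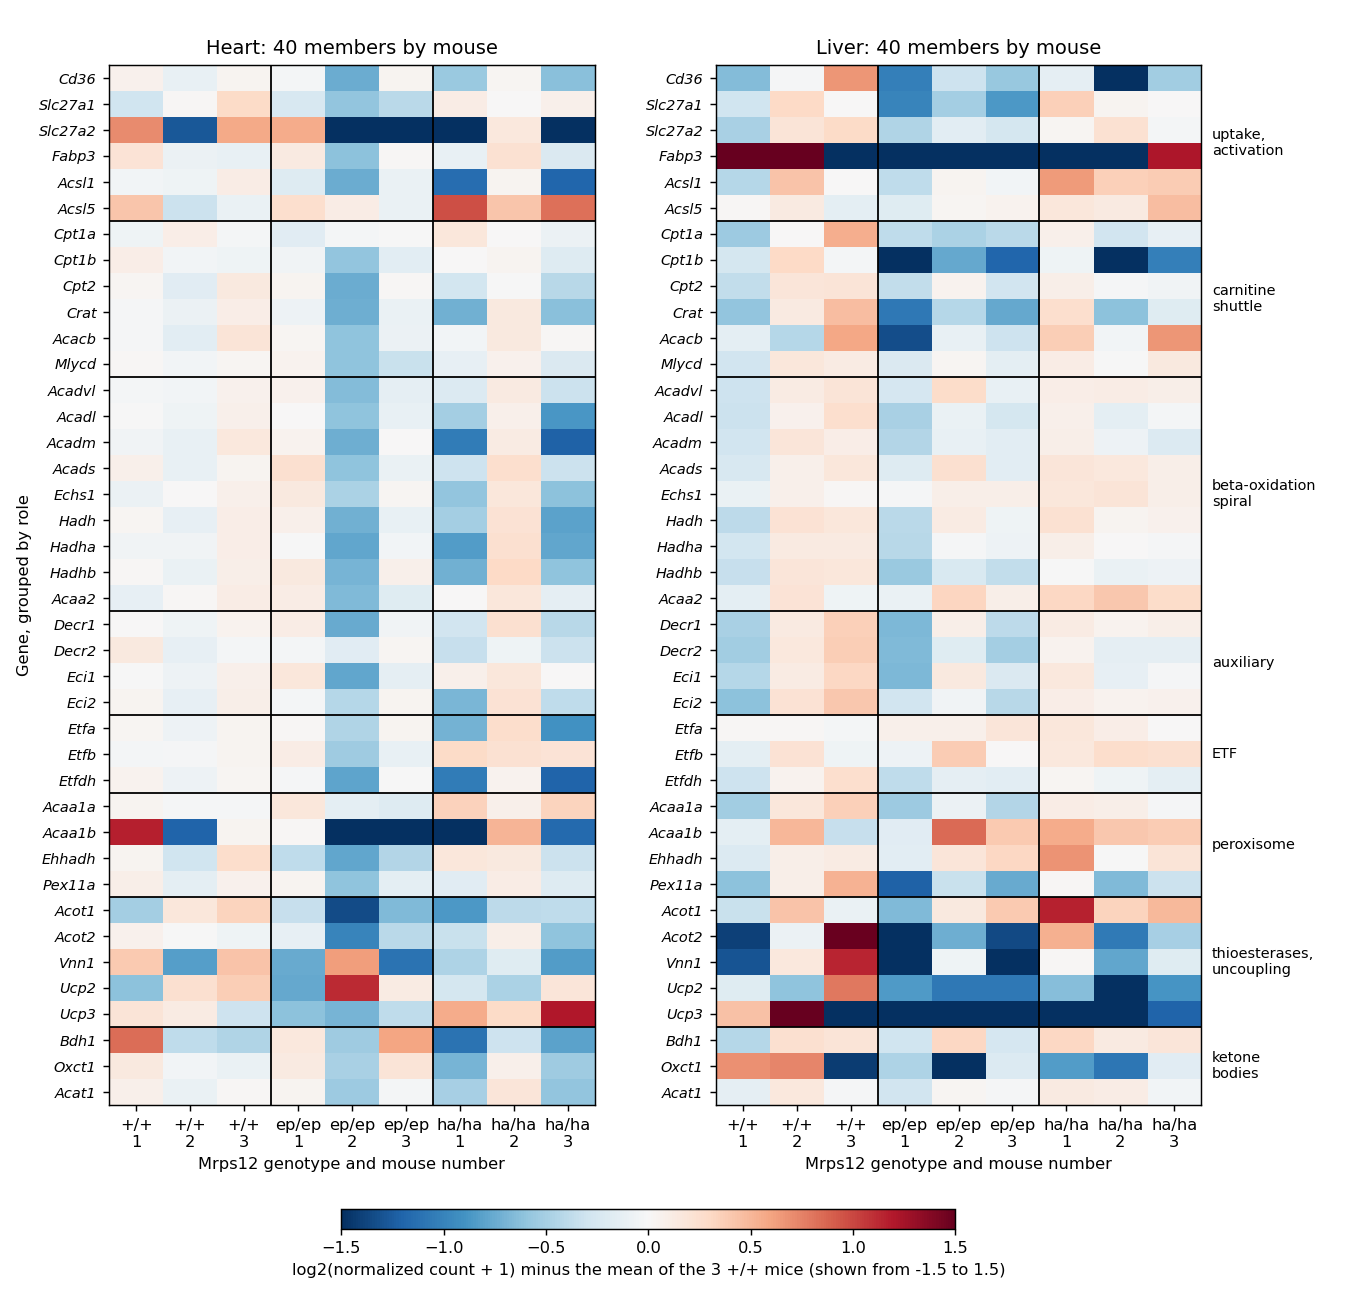
Each row is a member, grouped by role, and each column a mouse, with hearts on the left and livers on the right. Colour gives log2(normalized count + 1) minus the mean of the 3 +/+ mice, shown from -1.5 to 1.5. Blue columns mark ep/ep heart 2 and ha/ha hearts 1 and 3, whose median members stood at -0.61, -0.34 and -0.40, and ep/ep liver 1, at -0.45. The median member of +/+ liver 1 stood at -0.31.

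Uptake and activation came first. Cd36 had 76611, 67753 and 74859 normalized counts in +/+ hearts, 71595, 43506 and 74967 in ep/ep hearts and 49452, 74584 and 47219 in ha/ha hearts. The low values were those of the 3 mice named above. Acsl1 had 42216, 41501 and 46742 counts in +/+ hearts, 38100, 26018 and 40552 in ep/ep hearts and 19714, 44782 and 18991 in ha/ha hearts. All 3 ep/ep hearts were below the +/+ hearts, with a log2 fold change of -0.34 ± 0.32 (standard error) and an adjusted p of 1 from limma, and the ha/ha hearts overlapped +/+ through mouse 2 at -0.76 ± 0.32 (adjusted p = 0.238). Without ep/ep mouse 2 the first value was -0.14, and without ha/ha mouse 2 the second was -1.17. Acsl5, whose enzyme also makes acyl-CoA, went the other way. Its counts were 1088, 653 and 760 in +/+, 969, 880 and 761 in ep/ep and 1598, 1090 and 1442 in ha/ha hearts, and every ha/ha heart was above all other hearts, with 1090 against 1088 counts at the nearest. The log2 fold change was 0.74 ± 0.21 against +/+ (adjusted p = 0.199 from limma) and 0.65 ± 0.21 against ep/ep (adjusted p = 0.240). The ratio of Acsl5 to Acsl1 within a heart was 0.0810, 0.0243 and 0.0759 in ha/ha mice and 0.0157 to 0.0338 in the other 6.

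Fabp3 ranged from 118490 to 212953 counts with all genotypes overlapping. Slc27a1, the fatty acid transport protein of muscle, had 7431, 9273 and 11211 counts in +/+, 7741, 6106 and 6926 in ep/ep and 9929, 9175 and 9685 in ha/ha hearts. Both mutants overlapped +/+ and did not overlap each other, with a log2 difference of 0.48 ± 0.16 (adjusted p = 0.244 from limma). Slc27a2 had only 11 to 226 counts in hearts and moved with hepatocyte RNA. It was lowest, at 14 and 11, in ep/ep mice 2 and 3, which had 66 and 568 counts of the hepatocyte gene Alb, and highest, at 226, 204 and 202, in +/+ mice 1 and 3 and ep/ep mouse 1, which had 9895, 4116 and 7737. The tracking was loose, since ha/ha heart 2 had only 154 counts of Slc27a2 at 9879 of Alb. The ratio of Slc27a2 to Alb was 0.0129 to 0.212 in hearts and 0.0104 to 0.0265 in livers. The peroxisomal thiolase Acaa1b did likewise, with 9 to 339 counts. Its ratio to Alb was 0.0197 to 0.133 in hearts and 0.0129 to 0.0279 in livers, and the ratio of 0.133 belonged to ep/ep heart 2, where Acaa1b had 9 counts and Alb 66.

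The 6 genes of the carnitine shuttle had a median log2 fold change of -0.07 in ha/ha hearts. Cpt1b had 34245, 31093 and 30603 counts in +/+, 30796, 21174 and 28505 in ep/ep and 31981, 32804 and 27867 in ha/ha hearts. Cpt1a lay between 1782 and 2253 counts in all 9 hearts. Crat, the carnitine acetyltransferase that buffers acetyl-CoA, followed the pattern of Cd36 with 18687, 34003 and 20007 counts in ha/ha hearts against 29028 to 32970 in +/+ hearts. Acacb, which makes the malonyl-CoA that inhibits CPT1, and Mlycd, which removes it, had 12037, 10914 and 13932 and 4140, 4002 and 4173 counts in +/+ hearts. ha/ha hearts had 11919, 13530 and 12366 counts of Acacb and 3774, 4286 and 3530 of Mlycd, and both genes overlapped between all genotypes.

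In the spiral 8 of 9 genes had a negative log2 fold change in ha/ha hearts, with a median of -0.34. Acadm, the medium-chain dehydrogenase, had 55239, 53015 and 64101 counts in +/+, 59376, 34350 and 57376 in ep/ep and 27795, 62504 and 24689 in ha/ha hearts. Its mean of 38330 ± 20993 (SD, n = 3) in ha/ha hearts stands for no single mouse. The log2 fold change against +/+ was -0.71 ± 0.35 with an adjusted p of 0.283 from limma, and ran from -1.13 without ha/ha mouse 2 to -0.46 without ha/ha mouse 3. Hadha had 67567, 67910 and 75192 counts in +/+, 69957, 41025 and 68283 in ep/ep and 39088, 82847 and 40782 in ha/ha hearts, so that heart 2 had more than any other and hearts 1 and 3 fewer. Hadhb kept to its neighbour: within a mouse the ratio of Hadhb to Hadha was 0.969 to 1.14 in the 9 hearts and 0.464 to 0.587 in the 9 livers. Acaa2 was the gene of the spiral with the value above 0, at 32708, 36761 and 29673 counts in ha/ha against 29964, 33056 and 35178 in +/+ hearts.

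The subunit genes of the electron transfer flavoprotein parted, and the gene of its dehydrogenase, Etfdh, moved with that of the alpha subunit. Etfa, the alpha subunit, had 21799, 20292 and 22032 counts in +/+, 21607, 15593 and 22001 in ep/ep and 13020, 25610 and 11382 in ha/ha hearts. Etfdh, which hands the electrons to ubiquinone, had 32797, 29935 and 32139, then 31155, 18309 and 31383, then 15333, 32774 and 13688 in the same order. Both genes were at their lowest in ha/ha hearts 1 and 3. Etfb, the beta subunit, had 16077, 16189 and 16816, then 17737, 11321 and 15121, then 19884, 19162 and 18871, and all ha/ha hearts were above the other 6. The log2 fold changes against +/+ were -0.45 ± 0.28 for Etfa, -0.73 ± 0.33 for Etfdh and 0.24 ± 0.16 for Etfb, with adjusted p-values of 0.359, 0.254 and 0.401 from limma. Leaving out 1 mouse moved Etfa between -0.81 (without ha/ha mouse 2) and -0.23 (without ha/ha mouse 3) and Etfdh between -1.13 and -0.50 (the same mice), and Etfb between 0.22 and 0.26. The ratio of Etfb to Etfa was 1.53 and 1.66 in ha/ha hearts 1 and 3 and 0.687 to 0.821 in the other 7.

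**Figure D3:**
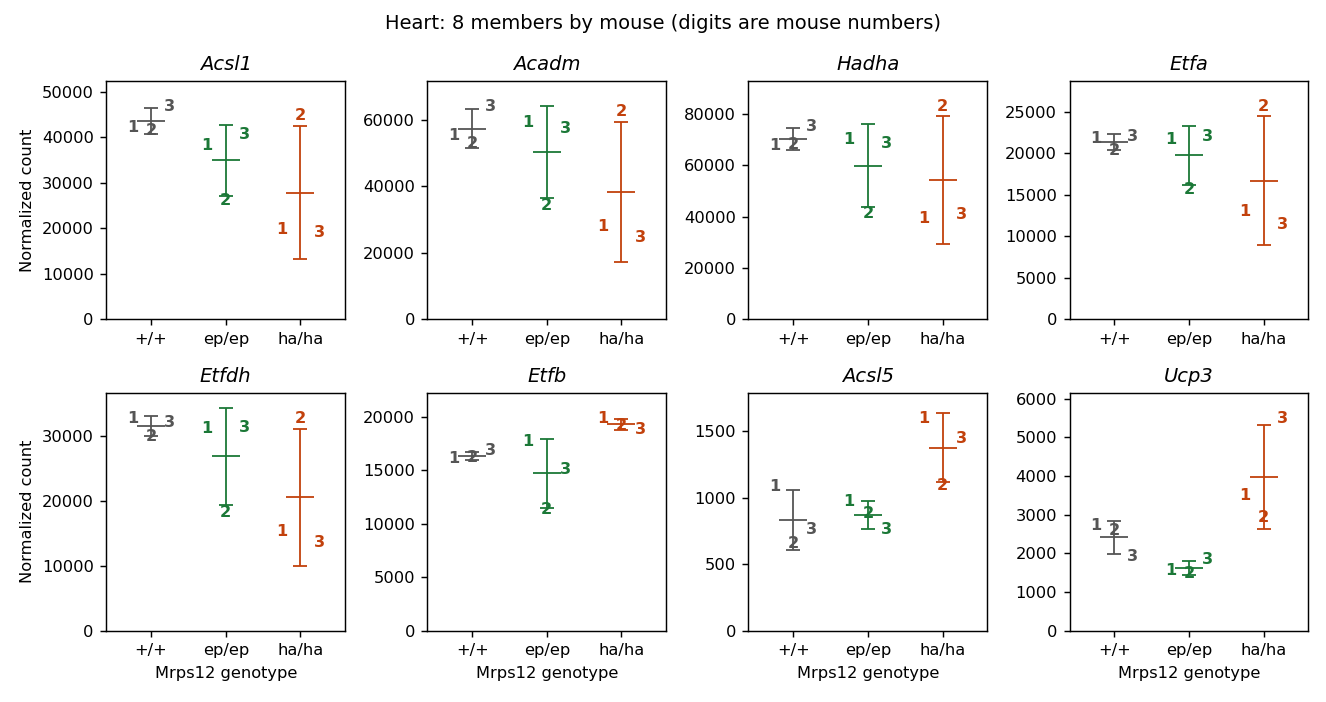
Normalized counts of 8 members in the heart, with a digit for each mouse, a horizontal mark at the mean and bars of 1 SD (n = 3). In Acsl1, Acadm, Hadha, Etfa and Etfdh, ha/ha mouse 2 sits apart from mice 1 and 3, whereas in Etfb, Acsl5 and Ucp3 all ha/ha mice lie above the +/+ mice.

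Among the genes at the edge of the pathway Ucp3 stood out. It had 2727, 2602 and 1917 counts in +/+, 1557, 1472 and 1834 in ep/ep and 3510, 2924 and 5499 in ha/ha hearts, so that the 3 genotypes formed 3 ranges without overlap. The log2 fold change was 0.68 ± 0.23 for ha/ha and -0.56 ± 0.23 for ep/ep mice against +/+ (adjusted p of 0.213 and 1 from limma), and 1.25 ± 0.23 between the mutants (adjusted p = 0.179, exact permutation p = 0.1). Without ha/ha mouse 3, the highest, the difference of ha/ha from +/+ was 0.42, and leaving out 1 mouse gave 0.99 to 1.44 between the mutants. Its neighbour Ucp2, which is also found in immune cells, went the other way in 1 heart, with 13225 counts in ep/ep mouse 2 and 3568 to 7868 in the others. The summed count of 7 macrophage genes was 8998 in that heart and 4554 to 5976 in the others. Acot1 and Acot2 cleave acyl-CoA in the cytosol and in mitochondria and are targets of PPARA. Acot1 had 693, 1110 and 1244 counts in +/+, 778, 387 and 621 in ep/ep and 543, 752 and 757 in ha/ha hearts, and Acot2 had 4660, 4412 and 4253, then 4060, 2235 and 3357, then 3514, 4711 and 2928. Acot2 was lower in every ep/ep than in every +/+ heart, at a log2 fold change of -0.51 ± 0.23, and Acot1 overlapped at -0.78 ± 0.29, both with an adjusted p of 1 from limma. Without ep/ep mouse 2 they were -0.27 and -0.50. Ehhadh, the bifunctional enzyme of peroxisomes, had 474, 376 and 554 counts in +/+, 355, 268 and 342 in ep/ep and 519, 513 and 368 in ha/ha hearts, and ep/ep hearts were again below all +/+ hearts (-0.53 ± 0.20, adjusted p = 1). Vnn1, a pantetheinase, was near the limit of measurement with 9 to 32 counts.

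Ketone body genes were low in the same ha/ha hearts. Oxct1 had 45217, 39770 and 38129 counts in +/+, 44963, 29154 and 46966 in ep/ep and 25264, 43257 and 28375 in ha/ha hearts. Bdh1 was uneven among +/+ hearts, at 8202, 3526 and 3364, and had 5154, 3176 and 6956 in ep/ep and 2141, 3709 and 2638 in ha/ha hearts. Acat1 had 19037, 30325 and 17772 in ha/ha hearts and 25055 to 28279 in +/+ hearts. All genotypes overlapped in these 3 genes.

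Counted by mice that did not overlap, 4 members were higher in ha/ha than in +/+ hearts (11.1% of all genes were) and 0 were lower (10.0%). They were Acsl5, Ucp3, Etfb and the peroxisomal thiolase Acaa1a, which had 2807, 2332 and 2781 counts against 2282, 2179 and 2182 (log2 fold change 0.25 ± 0.13, adjusted p = 0.289 from limma). In ep/ep hearts 0 were higher (4.40% of all genes) and 4 were lower (3.64%), Acsl1, Ehhadh, Acot2 and Ucp3. Between the mutants 5 were higher in ha/ha hearts (8.77%), Slc27a1, Acsl5, Etfb, Ehhadh and Ucp3, and 0 were lower (7.82%). Without ha/ha mouse 2, the shallowest heart, limma called 11 members against +/+ (2 higher and 9 lower), at a share of 27% of all genes. Of the 16057 genes tested, 1957 were called higher and 2373 lower. The 9 were Acsl1, Crat, Acadl, Acadm, Echs1, Hadha, Eci2, Etfa and Etfdh, with log2 fold changes from -1.17 for Acsl1 to -0.53 for Eci2, and the 2 were Acsl5 at 0.90 and Ucp3 at 0.88. Against ep/ep 7 were called (3 higher and 4 lower) where 23.2% of all genes were (1663 higher and 2067 lower). These counts of 40 members are to be read against those shares of all genes.

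In the liver most members were lower in ep/ep than in +/+ and in ha/ha mice by their fold changes, again with 0 called from limma in each comparison. Of all genes 0.00653% were called between ha/ha and +/+ livers, 0.00653% between ep/ep and +/+ livers and 0.00653% between the mutants. At an unadjusted p under 0.05 there were 3 members in the first (14.1% of all genes), 7 in the second (9.74%) and 4 in the third (8.62%). The 7 were all lower in ep/ep livers, while these shares of all genes count both directions. The 7 include Ucp3, which entered the fit only through the +/+ livers. The median log2 fold change of the members was -0.25 in ep/ep livers with 34 of 40 below 0, 0.06 in ha/ha livers with 24 above 0 and 0.27 between the mutants with 37 above 0, against -0.007, -0.017 and -0.002 for all genes. Without +/+ mouse 1 the median of the ha/ha livers was -0.17, and that of the ep/ep livers was -0.42, while the latter was -0.14 without +/+ mouse 3 and -0.15 without ep/ep mouse 1. The median between the mutants was 0.17 without ep/ep mouse 1.

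The median member varied most among the +/+ livers. Against their own mean, the median member stood at -0.31, 0.15 and 0.17 in +/+ mice 1, 2 and 3, at -0.45, -0.06 and -0.26 in ep/ep mice and at 0.11, -0.00 and -0.02 in ha/ha mice. ep/ep liver 1 had the lowest value of the 9 livers in 22 members and +/+ liver 1 in 12. +/+ liver 3, the one with high Fgb, had the highest in 17. Cd36 had 5077, 7855 and 12639 counts in +/+, 3924, 6432 and 5369 in ep/ep and 7264, 2581 and 5526 in ha/ha livers. Vnn1 had 2831, 7723 and 15294, then 2224, 6637 and 2319, then 7028, 4041 and 6115, and Acot2 had 296, 738 and 2185, then 181, 471 and 306, then 1130, 375 and 553. All 3 genes had their highest count in +/+ liver 3 and overlapped between all genotypes.

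Slc27a1 parted ep/ep livers from both other genotypes. It had 387, 587 and 478 counts in +/+, 240, 335 and 262 in ep/ep and 609, 492 and 479 in ha/ha livers. The log2 fold change was -0.79 ± 0.19 against +/+ (adjusted p = 0.348 from limma) and 0.92 ± 0.19 for ha/ha against ep/ep mice (adjusted p = 0.417). Acsl1, which had 33211, 59801 and 44634 counts in +/+ livers, had 34168, 45769 and 43303 in ep/ep and 69511, 56968 and 58258 in ha/ha livers. The mutants did not overlap, at a log2 difference of 0.59 ± 0.21 (adjusted p = 0.519). Acacb did likewise with 2665, 6179 and 5404 against 8630, 6504 and 10592 counts (0.91 ± 0.35, adjusted p = 0.539), or 0.54 without ep/ep mouse 1, and +/+ livers overlapped both at 6055, 4971 and 9976.

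Cpt1a, the gate of hepatic oxidation, had 19047, 28032 and 40541 counts in +/+, 21436, 19975 and 20998 in ep/ep and 29477, 22857 and 25655 in ha/ha livers. Cpt1b was scarce but lower in every ep/ep than in every +/+ liver, with 182, 338 and 253 against 479, 707 and 567 counts (-1.20 ± 0.38, adjusted p = 0.435 from limma), and 550, 184 and 284 in ha/ha livers. The skeletal muscle genes summed to 29107, 37785 and 60 in +/+ livers 1, 2 and 3, and their part in the counts of Cpt1b was not tested. Crat had 4637, 7679 and 9659 counts in +/+, 3342, 5216 and 4108 in ep/ep and 8373, 4581 and 6160 in ha/ha livers, with overlap throughout.

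Genes of the spiral were close between genotypes in the liver. Acadm had 17716, 24384 and 23186 counts in +/+, 15861, 19967 and 19371 in ep/ep and 22848, 20415 and 18717 in ha/ha livers. Acaa2 had 32784, 41672 and 34677, then 33901, 45352 and 38343, then 44933, 47919 and 43946, and Echs1, the short-chain hydratase, had 8476, 9575 and 9118, then 8906, 9589 and 9641, then 10177, 10357 and 9613. Both were higher in every ha/ha than in every +/+ liver, at log2 fold changes of 0.33 ± 0.14 and 0.15 ± 0.08 (adjusted p of 0.340 and 0.455 from limma). Hadhb had 9174, 13274 and 13131 counts in +/+, 7970, 9986 and 9060 in ep/ep and 11610, 10885 and 11085 in ha/ha livers. As in the heart it moved with Hadha, and both were lower in every ep/ep than in every ha/ha liver. For Hadha this was a near tie, with the nearest livers at 20340.6 counts in ep/ep and 20342.4 in ha/ha mice.

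Peroxisomal genes were high in the liver. Ehhadh had 9856, 12087 and 12437 counts in +/+, 10197, 12972 and 14089 in ep/ep and 18145, 11366 and 13070 in ha/ha livers. Pex11a, which drives the division of peroxisomes, had 7609, 12309 and 16722, then 4993, 9182 and 6882, then 11712, 7338 and 9255. Acot1 had 1480, 2514 and 1733, then 1176, 2061 and 2446, then 4136, 2351 and 2613. All genotypes overlapped in these 3 genes.

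Ucp2 was lower in both mutants. It had 3759, 2813 and 7362 counts in +/+, 2368, 2038 and 2033 in ep/ep and 2747, 1385 and 2319 in ha/ha livers. Neither mutant overlapped +/+, at log2 fold changes of -1.0 ± 0.34 and -1.05 ± 0.34 (adjusted p of 0.456 and 0.240 from limma). Without +/+ mouse 3, the liver with high Fgb, they were -0.60 and -0.65. The nearest livers were at 2747 counts in ha/ha and 2813 in +/+ mice. The summed macrophage and Kupffer cell genes overlapped between genotypes, at 10676 to 26009.

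Fabp3 and Ucp3 were highest in livers that held muscle RNA. Fabp3 had 1022, 1571 and 8 counts in +/+, 9, 1 and 40 in ep/ep and 17, 0 and 568 in ha/ha livers. The high values were those of the 2 livers with skeletal muscle genes and of the liver with cardiomyocyte genes, which had 4289 counts of Myh6. Ucp3 had 34, 74 and 6 counts in +/+, 0 reads in all 3 ep/ep livers and 5, 3 and 10 counts in ha/ha livers. Taking 3 reads in each ep/ep library as the floor, it was at least 10.2-fold lower in ep/ep than in +/+ livers. Without +/+ mouse 2 this was at least 5.36-fold. Both ratios rest on +/+ livers that held skeletal muscle RNA, while +/+ liver 3 had 6 counts against a floor of 3.73. They are therefore no evidence on the genotypes. Ucp3 entered the fit only through the +/+ livers, whose mean was 38.1 counts, so its p-values are no evidence on the genotypes. Its adjusted p was 0.244 from limma. Without +/+ mouse 3, which leaves the +/+ livers that held skeletal muscle RNA, it was the 1 member called, where 0.444% of all genes were. Oxct1 had 515, 533 and 119 counts in +/+ livers, 232, 107 and 277 in ep/ep and 178, 150 and 285 in ha/ha livers. The part of muscle RNA in these 3 genes was not tested.

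By mice that did not overlap, 2 members were higher (10.0% of all genes were) and 1 was lower (9.81%) in ha/ha than in +/+ livers, and 1 was higher (6.49%) and 4 were lower (6.28%) in ep/ep livers. The 1 was Etfa, with 13474, 13507 and 13105 counts in +/+ and 14065, 14113 and 15156 in ep/ep livers. The 4 were Slc27a1, Cpt1b, Ucp2 and Ucp3. Ucp3 passed the filter on low counts only through the +/+ livers, so its place among the 4 is no evidence on the genotypes. Between the mutants 12 members were higher in every ha/ha than in every ep/ep liver, where 8.82% of all genes were, and 0 were lower, where 9.01% were. They were Slc27a1, Slc27a2, Acsl1, Acsl5, Cpt1a, Acacb, Hadha, Hadhb, Decr2, Eci2, Acaa1a and Ucp3. Hadha is among them by the near tie given above. Ucp3 had only 3 to 10 counts in ha/ha livers and passed the filter on low counts through the +/+ livers. Genes of one pathway vary together between mice, so the 12 are not 12 separate observations, and none was called. By role, all 9 genes of the spiral, all 6 of the carnitine shuttle, all 4 auxiliary enzymes, all 4 peroxisomal genes and all 3 ketone body genes had positive differences between the mutants, with medians of 0.20, 0.30, 0.35, 0.30 and 0.16. Of the others, 5 of 6 genes of uptake and activation, 4 of 5 thioesterase, pantetheinase and uncoupling genes and 2 of 3 of electron transfer were positive.

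**Figure D4:**
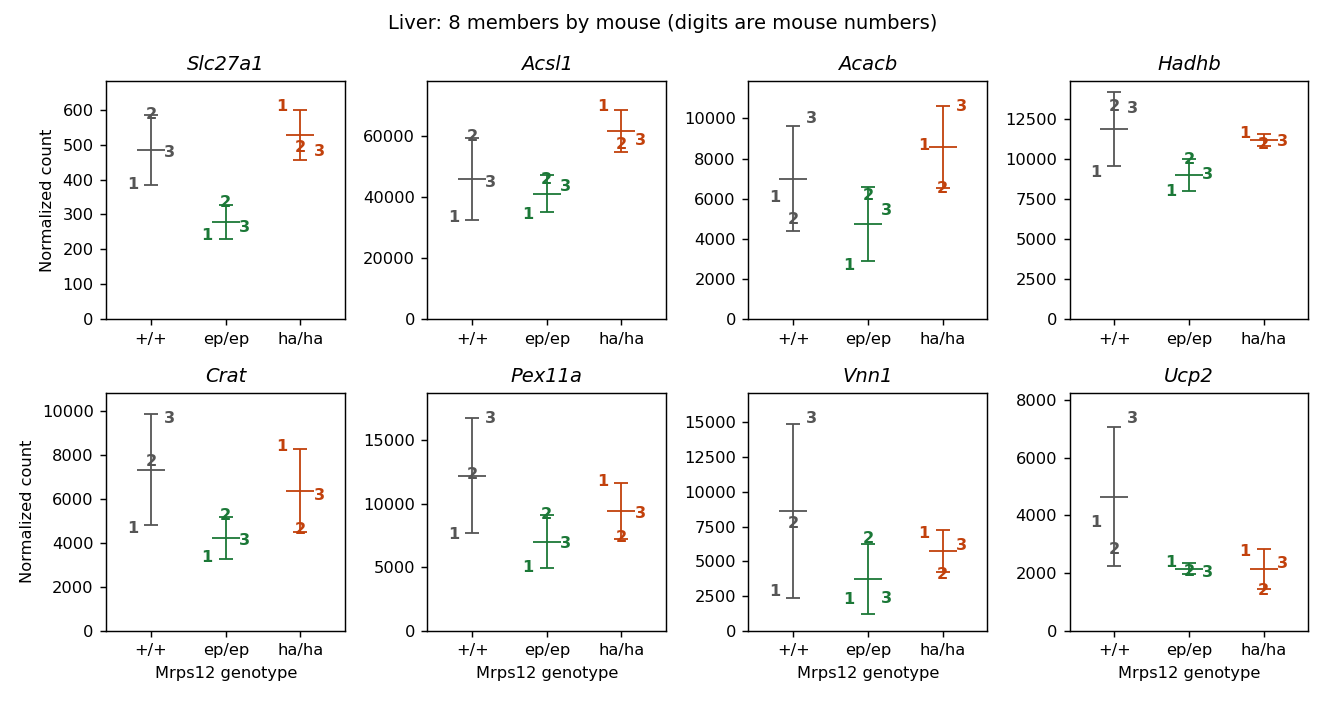
Normalized counts of 8 members in the liver, with a digit for each mouse, a horizontal mark at the mean and bars of 1 SD (n = 3). Slc27a1 is lower in all ep/ep mice than in both other genotypes, Acsl1, Acacb and Hadhb part the mutants, and +/+ mouse 3 is highest in Crat, Pex11a, Vnn1 and Ucp2.

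**Figure D5:**
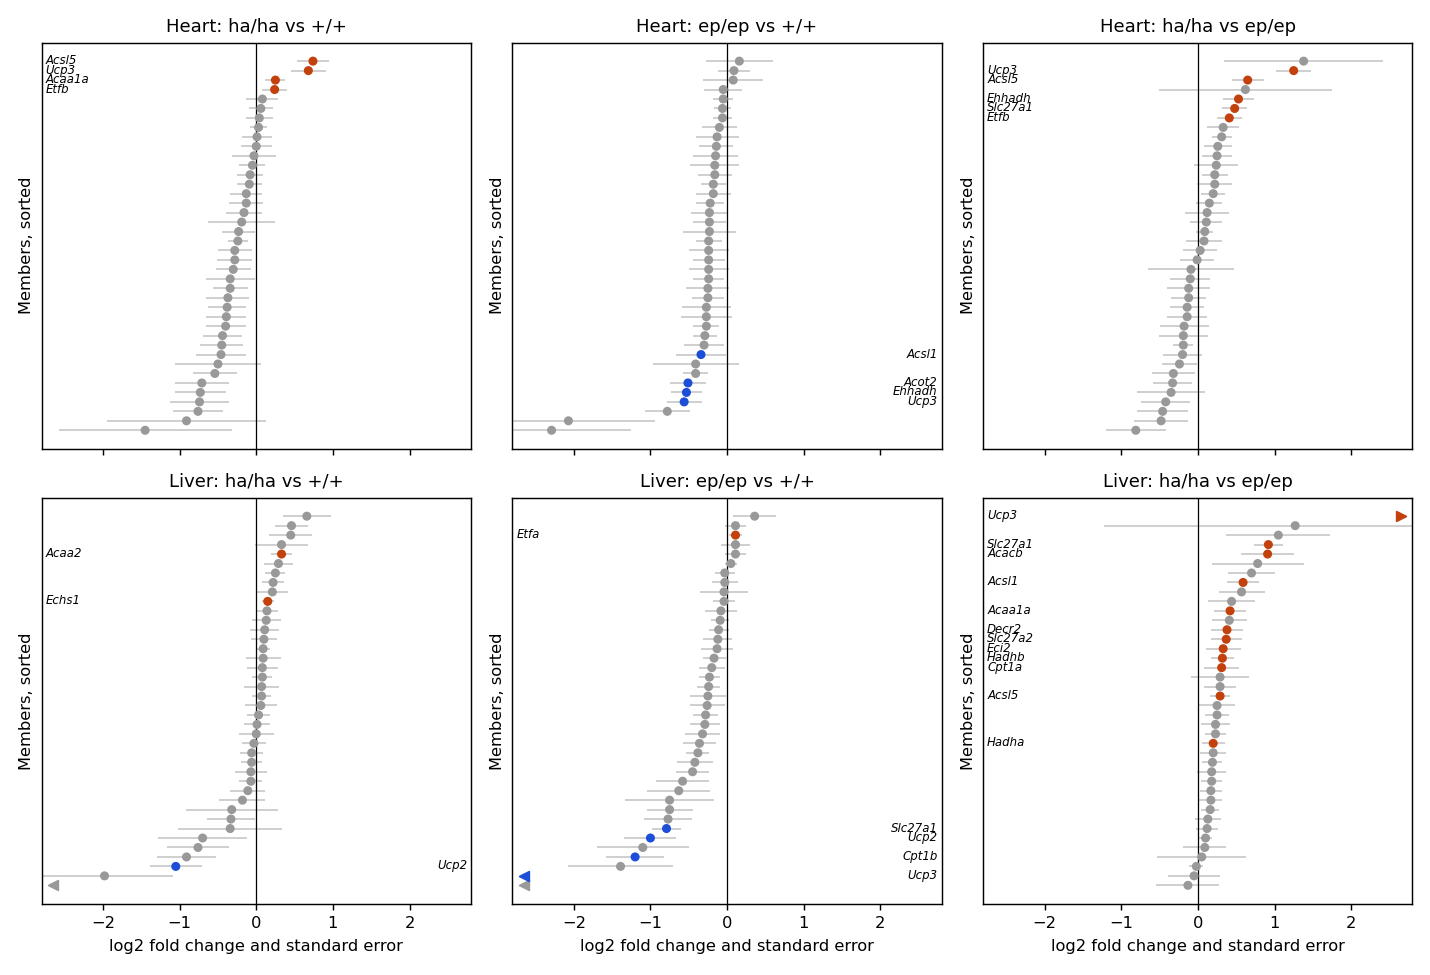
Log2 fold changes of the 40 members with their standard errors, sorted within each of the 6 comparisons. Coloured points are members whose mice do not overlap between the genotypes, red if higher and blue if lower in the first genotype named, and triangles stand for values beyond the axis. The liver comparison of the mutants has 12 coloured points, all to the right of 0.

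Of 74 other genes of these pathways 69 could be tested in hearts and 71 in livers, and 0 were called. In ha/ha hearts 4 were higher and 5 lower in every mouse than in +/+ hearts, where 11.1% of all genes were higher and 10.0% lower. Angptl4, an inhibitor of lipoprotein lipase, had 533, 305 and 635 counts in +/+, 542, 495 and 460 in ep/ep and 1195, 1235 and 2095 in ha/ha hearts, and Acad10, a dehydrogenase relative, had 197, 194 and 280 counts against 387, 344 and 375 in ha/ha hearts. The largest lower values were those of Acat2 and Aacs, cytosolic enzymes of acetoacetyl-CoA, at log2 fold changes of -0.87 and -0.49. Ppara itself had 472, 604 and 635 counts in +/+, 600, 339 and 758 in ep/ep and 140, 725 and 249 in ha/ha hearts. The same 2 ha/ha mice were low as in the spiral. Of the 10 listed regulators, Ppara among them, 8 had negative and 2 positive log2 fold changes in ha/ha against +/+ hearts. In ep/ep hearts 0 of the other pathway genes were higher (4.40% of all genes) and 9 lower (3.64%), most of all Cyp4a14 and Cyp4a10. Both are liver enzymes and were at 1 to 225 counts.

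In the liver 10 of these genes were higher and 3 lower in ha/ha than in +/+ mice without overlap (10.0% and 9.81% of all genes). Ppargc1b, a coactivator of these receptors, had 106, 150 and 24 counts in +/+, 151, 218 and 444 in ep/ep and 376, 557 and 321 in ha/ha livers, and the thioesterase gene Acot3 had 318, 824 and 1256, then 156, 1490 and 1179, then 4705, 1631 and 3337. Pdk4, the kinase that turns off pyruvate oxidation, was lower in both mutants, with 944, 1920 and 2307 counts in +/+, 372, 822 and 459 in ep/ep and 833, 522 and 481 in ha/ha livers. Acsl4 was the other large one among the 3 lower genes, at a log2 fold change of -0.50. In ep/ep livers 7 were higher (6.49% of all genes), led by Ppargc1b and the ketone body dehydrogenase gene Bdh2 at 1.72 and 0.84, and 5 were lower (6.28%), led by Fabp5 and Pdk4 at -2.09 and -1.63. Fabp5 had 891, 563 and 6515 counts in +/+ and 446, 280 and 335 in ep/ep livers, with the high value in +/+ liver 3. Between the mutants 18 were higher and 0 lower in ha/ha livers, where 8.82% and 9.01% of all genes were, and these genes too vary together between mice.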

How the data were processed

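Hearts and livers of 9 mice were measured by RNA sequencing. The authors trimmed reads with Trim Galore 0.4.1 and cutadapt 1.18, quantified transcripts with Salmon 1.1.0 on GENCODE vM21 and GRCm38.p6, pooled the technical libraries and normalized gene counts per tissue with DESeq2 without mitochondrial transcripts, as per the labels and the methods. The deposited values are these normalized counts, 1 column per mouse. Their own fold changes and p-values are in further tables that were not used. Of the low values in each column 100.0% fell on multiples of a single step (within 0.1 read), which gave the reads.

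The members and lists were chosen with earlier results of these data known. Genes whose mean normalized count reached 10 were fitted with limma 3.58.1 in R 4.3.3 (lmFit, eBayes with trend) on log2(normalized count + 1), with the 3 genotypes of each tissue fitted jointly, with Benjamini-Hochberg adjustment. Per-length levels used the union of GENCODE exons. Values by mouse were to be given for called members (up to 8), for the 4 members of largest change without overlap in each comparison with +/+, and for 15 fixed members. Of the other genes the 2 largest changes in each direction without overlap were to be named. Etfa, Etfdh, Hadhb, Crat, Acat1, Pex11a, Ppara and the other members outside this rule were added after their values were seen. Counts were simulated for the comparison of ha/ha with +/+ hearts over 16252 genes. At a dispersion of 0.02, limma called 79 of 100 genes changed by 1 on the log2 scale and 100 of 100 changed by 2. At a dispersion of 0.1 it called 11 and 90. Unchanged genes called were 12 at 0.02 and 9 at 0.1. Promoter windows are from RefSeq. Python 3.11.15 with pandas 2.3.3 was used for the rest.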

Additional observations from a re-analysis of the deposited data

How the results depend on the processing

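The count of members called was 0 in all 6 comparisons in limma under pseudocounts of 0.1 and 8, no filter, a mean of at least 50, a fit of only the 2 genotypes compared, limma-voom on whole reads, re-centring on the median gene and the replicate block. With array weights, which let limma weigh each heart, 18 members were called in ha/ha against +/+ hearts (3 higher and 15 lower). Of all genes 34.7% were called there, 2590 higher and 2983 lower. Against ep/ep hearts 21 members were called (5 higher and 16 lower), where 39.3% of all genes were, 2953 higher and 3361 lower. Leaving out 1 mouse gave 0 to 11 members for ha/ha and 0 for ep/ep against +/+ hearts, and 0 to 7 between the mutants, where 11 and 7 came without ha/ha mouse 2. In livers it gave 0, 0 to 1 and 0. The member medians then ran from -0.41 to -0.15, from -0.36 to -0.02 and from -0.14 to 0.17 in hearts, and from -0.17 to 0.16, from -0.42 to -0.14 and from 0.17 to 0.34 in livers, in the order ha/ha and ep/ep against +/+ and ha/ha against ep/ep. None of the 27 member fold changes recomputed under these alternatives turned its sign, and those of the other pathway genes were not recomputed. In most of the 27 the mice did not overlap, and there leaving out a mouse or changing the pseudocount cannot turn a sign. The kept signs are therefore no evidence of stability. The member median did turn its sign between the mutant hearts and in ha/ha against +/+ livers. Acsl5, Ucp3, Acsl1, Acadm, Etfa and Etfdh in ha/ha hearts passed 0.05 with array weights and without ha/ha mouse 2 only, and Acaa1a with array weights only. Between the mutants Ucp3 and Acsl5 passed under the same settings and Slc27a1 with array weights only. The adjusted p ranged from 0.00163 to 0.483 for Ucp3 between the mutant hearts and from 0.0149 to 0.700 for Ucp3 in ep/ep livers. In livers Ucp3 entered the fit only through the +/+ mice, so the latter range is no evidence on the genotypes. Mice with the same number did not deviate together throughout: correlations over genes were 0.58, 0.41 and -0.07 for +/+ with ep/ep hearts and 0.16, 0.13 and -0.07 in livers. The replicate block left the member median at -0.26, -0.24 and 0.05 in hearts and 0.06, -0.25 and 0.27 in livers, with 0 members called. A count model on the recovered reads was not run. With 3 mice a genotype, a change of 1 on the log2 scale in a gene as variable as the simulated dispersion of 0.1 was recovered in 11 of 100 genes.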
